A study of Schizosaccharomyces pombe with 72 samples.

Results

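Among the coding genes of Schizosaccharomyces pombe, 30 had more transcript after 4 further days without nitrogen at 25°C (T4D25) than after the first 24 hr without nitrogen (T0-N). They were chosen by a threshold on the same counts. A gene was taken when its mean over the 12 T4D25 libraries was at least 10 CPM (the count of a gene over all counts on genes, scaled to 1e6) and at least 2.5 times its mean over the 12 T0-N libraries. Genes within 100 kb of a chromosome end, cytosolic and mitochondrial ribosomal protein genes with the usual symbols, and non-coding RNAs were left out. This left 4771 eligible genes of 7014 in the table, from which the 30 came. Because the T0-N and T4D25 means chose them, every comparison of either condition with another condition is given below as a description with no test.

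Fission yeast cells deprived of nitrogen stop dividing in G1 and, with no partner to mate with, enter quiescence, a non-dividing state in which they can live for a long time and from which they return when nitrogen is restored. Quiescent cells recycle their own protein and RNA, produce few ribosomes, and change the metabolism of carbon, sulphur and vitamins. TORC1 is the kinase complex that signals nitrogen supply in this yeast, and Mip1 is its Raptor subunit. Mis4 is a loader of cohesin, the ring complex that holds sister chromatids together.

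RNA-sequencing was done on 72 libraries in 6 growth conditions of 12 libraries each, with 4 strains and 3 biological replicates in each. Cells cycled in the rich medium YES at 25°C (V25) or for 1 doubling at 36.5°C (V36.5), or were arrested in G1 at 36.5°C by the cdc10-129 mutation (G1_36.5). For quiescence, cells grown in EMM2, a synthetic medium, were moved to the same medium with no nitrogen source at 25°C for 24 hr (T0-N), and the cultures were then divided and kept for 4 days at 25°C (T4D25) or 36.5°C (T4D36.5). Strains were wild-type or carried mip1-R401G, mis4-G1487D or both alleles. The labels give strain numbers 86, 92, 93 and 97, and numbers 82, 83, 84 and 85 for the G1 arrest, without pairing them with genotypes, so no genotype was compared. The starved strains of the study were of a single mating type (M), and transcripts of the M markers summed to between 8174 and 24321 CPM in T0-N and between 366 and 4376 CPM in T4D25. The 3 P markers in the table summed to between 277 and 481 CPM in T0-N and between 379 and 512 CPM in T4D25. Most of this was sxa1, with means of 338 and 426 CPM, and its mean in V25 was 441 CPM. map2, the P pheromone gene, was between 5.59 and 15.1 CPM in T0-N and T4D25.

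Each library held between 1173880 and 7664476 counts on genes. At this depth 3 counts corresponded to between 0.391 and 2.56 CPM, and such floors cover counting error only. The 30 genes together took a median of 0.309% of the counts in T0-N (0.212% to 0.409%), 1.39% in T4D25 (1.13% to 1.68%) and 1.52% in T4D36.5 (1.29% to 1.85%). In V25 their share had a median of 0.209% (0.178% to 0.268%). The starved libraries also held ERCC spike-in RNAs, at a median of 3.92% in T0-N and 2.64% in T4D25 relative to the counts on genes. Scaled to those spike-ins, the median eligible gene with a mean of at least 10 CPM was 1.88 times higher in T4D25 than in T0-N, so all ratios below are relative to the other transcripts of the library. The number of cells and the RNA per cell cannot be told apart in these bulk samples.

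The 30 genes fall into groups by their annotated products. Carbon and one-carbon metabolism is represented by pdc201 (pyruvate decarboxylase, which makes acetaldehyde), fmd2 (glutathione-dependent formaldehyde dehydrogenase), shm1 (serine hydroxymethyltransferase) and SPBC24C6.09c (a phosphoketolase family protein). SPBC23G7.10c is annotated only as an NADH-dependent flavin oxidoreductase. Glutamate-derived cyclic compounds are handled by 2 oxoprolinases, SPAC11D3.14c and SPAC11D3.15, and by dgc1, annotated as a D-glutamate cyclase. nmt1 and thi2 encode enzymes that make the pyrimidine and the thiazole parts of thiamine. sua1 (sulfate adenylyltransferase) takes the first step of sulphate assimilation, and isu1 is a scaffold on which iron-sulphur clusters are assembled. pil2 (an eisosome protein of the plasma membrane), psu2 (annotated as a beta-glucosidase) and mug191 (an alpha-1,6-mannanase) belong to the cell surface, and SPAC11D3.18c to membrane transport of carboxylic acids. rpp201 and rpp203 encode P2 proteins of the ribosomal stalk. Their symbols did not match the pattern that removed other ribosomal protein genes. ddr48 bears the name of a stress-induced gene of budding yeast, and SPAC11D3.01c the name of a family first described in spores of Neurospora. min8, cum1, mug108 and lsd90 and 5 genes with a systematic name were annotated with no more than their name or as uncharacterized in addition to SPAC11D3.19.

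No 58-base stretch of any of the 30 transcripts occurred in another gene, so the reads of paralogs such as rpp201 and rpp203 can be told apart where they match perfectly. Of the 30, 19 overlapped an annotated transcript on the opposite strand and 6 overlapped one on the same strand. The libraries were stranded. dgc1 is covered almost whole by an antisense RNA, and in T4D25 the sense gene had a mean of 235 CPM against 1.46 CPM for the antisense RNA.

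The sequence before the RefSeq start of each gene was searched for 8 short motifs of known fission yeast factors. Windows were the 250 bases before the RefSeq gene start in ASM294v3, for the 30 genes and for 4738 eligible genes in all. CCAAT, the element bound by the Php complex, was present on either strand before 16 of the 30 genes and before 35.5% of the eligible genes. GATAAG was present before 3 of the 30 (10.1% of eligible genes), TGACGT before 1 (5.47%), CCCCTC before 2 (1.82%), GTAAACA before 1 (14.9%), TTCTTTGTT before 1 (1.73%), GAANNTTC before 3 (9.58%) and TTAGTCA before 1 (3.97%). thi2, SPAC9E9.02, SPCC1235.17, SPCPB16A4.06c, SPCC737.04, SPAC11D3.14c and SPAC11D3.18c have their RefSeq start well inside the gene as counted, so their windows lay within it. The CCAAT matches of SPAC9E9.02, SPCPB16A4.06c, SPAC11D3.14c and SPCC737.04 are of this kind. So are GATAAG of SPAC11D3.14c, TGACGT of SPAC9E9.02 and CCCCTC of SPAC11D3.18c. Other windows lay partly within the gene as counted, that of fmd2 almost wholly. Matches in such parts were GATAAG of SPAC11D3.15 and shm1, CCAAT of min8, SPBC23G7.10c and sua1, and TTAGTCA of sua1. All genes with GATAAG among the 30 therefore had it within the gene as counted. No motif is contained in another, GAANNTTC is its own reverse complement, and a match is only a match of letters. The windows of psu2, SPAC11D3.01c and cum1 are shown for their CCAAT letters, in capitals on either strand (ATTGG is the other strand), and that of nmt1 because none of the 8 motifs was found in it. They run 5′ to 3′ on the strand of the gene. The psu2 window is chrII:3467818-3468067 (minus strand), that of SPAC11D3.01c chrI:109181-109430 (minus), that of cum1 chrI:755872-756121 (minus) and that of nmt1 chrIII:1838165-1838414 (plus), all in RefSeq's ASM294v3.
psu2: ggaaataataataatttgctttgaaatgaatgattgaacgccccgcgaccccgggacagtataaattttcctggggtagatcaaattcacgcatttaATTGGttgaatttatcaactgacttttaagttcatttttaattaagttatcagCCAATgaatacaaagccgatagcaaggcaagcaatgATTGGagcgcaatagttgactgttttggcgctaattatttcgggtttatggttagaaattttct
SPAC11D3.01c: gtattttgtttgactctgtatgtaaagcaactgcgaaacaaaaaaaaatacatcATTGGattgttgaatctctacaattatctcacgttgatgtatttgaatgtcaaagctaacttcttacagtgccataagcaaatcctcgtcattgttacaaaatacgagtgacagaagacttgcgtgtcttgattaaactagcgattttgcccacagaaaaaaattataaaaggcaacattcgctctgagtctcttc
cum1: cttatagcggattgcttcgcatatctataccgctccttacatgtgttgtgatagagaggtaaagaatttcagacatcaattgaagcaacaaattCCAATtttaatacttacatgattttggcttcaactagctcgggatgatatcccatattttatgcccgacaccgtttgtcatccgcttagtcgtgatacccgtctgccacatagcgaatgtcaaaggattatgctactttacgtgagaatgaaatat
nmt1: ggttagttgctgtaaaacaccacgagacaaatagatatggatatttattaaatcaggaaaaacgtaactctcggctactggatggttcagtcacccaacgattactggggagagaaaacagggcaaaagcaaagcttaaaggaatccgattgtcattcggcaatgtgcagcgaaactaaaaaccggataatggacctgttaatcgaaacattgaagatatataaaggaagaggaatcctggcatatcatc

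psu2 held 3 matches to CCAAT, beginning 153, 100 and 64 bases before its RefSeq start. SPAC11D3.01c held 1, at 196 bases, and cum1 held 1, at 156 bases.

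The first comparison asks how far each gene stood above its level at 24 hr of starvation. All 30 genes were at least 2.51 times higher in T4D25, as the rule required, with a median of 3.62, against a median of 1.02 over the 4489 eligible genes with a mean of at least 10 CPM in either condition. The 12 T4D25 libraries lay wholly above the 12 T0-N libraries for 27 of the 30 (this held for 5.06% of eligible genes). The exceptions were thi2, isu1 and nmt1. When libraries of the same strain and replicate number were set against each other, 29 genes were higher in 12 of 12 pairs and nmt1 in 11 of 12. The means of these same libraries chose the genes, so these counts follow largely from the rule. The share of eligible genes higher in all pairs was not computed.

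**Figure D1:**
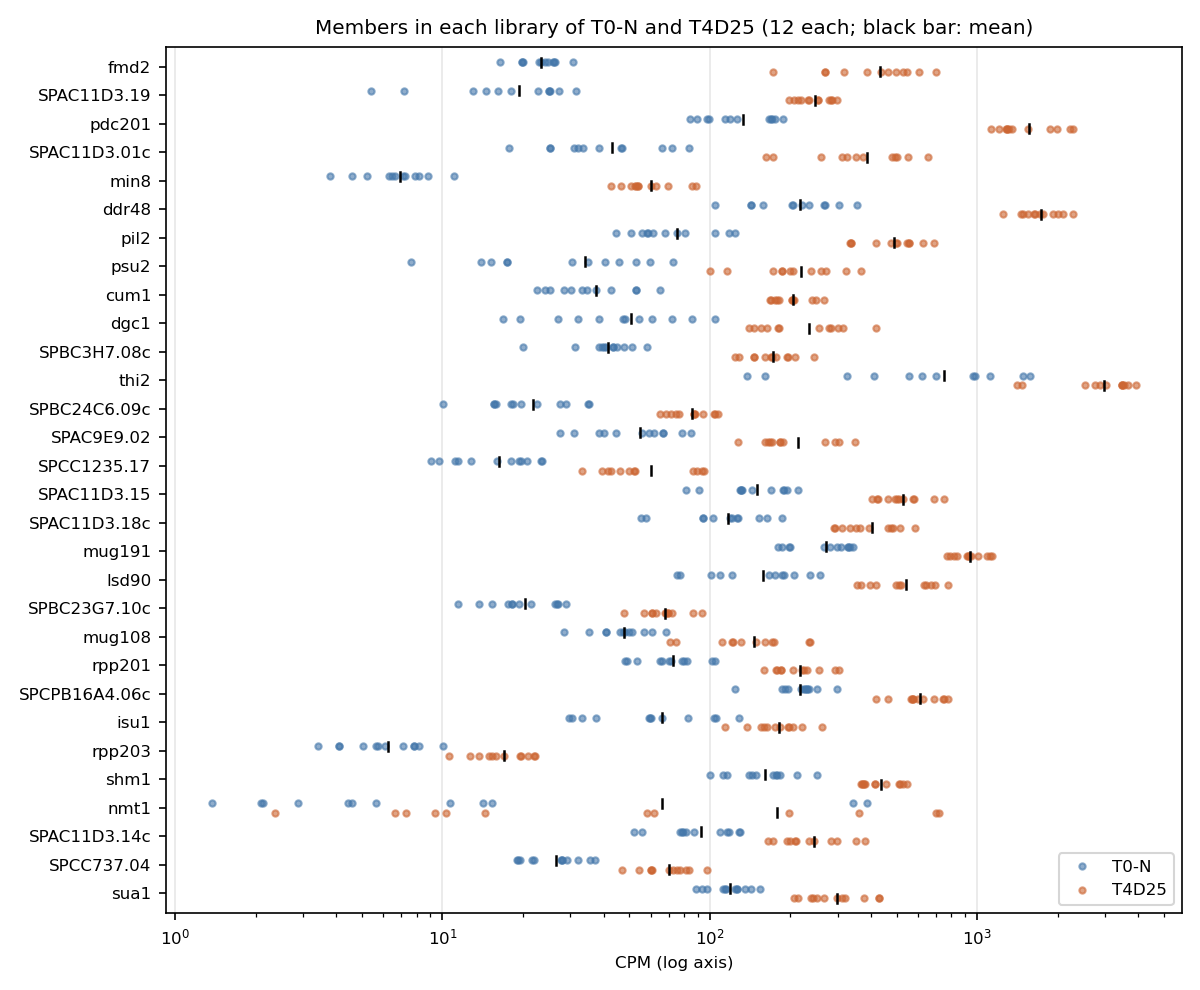
Each point is 1 library and each black bar the mean of 12, in CPM on a log axis, for the 30 genes in order of their ratio. fmd2 at the top went from a mean of 23.4 to 433 CPM, sua1 at the bottom from 119 to 299 CPM, and only the points of thi2, isu1 and nmt1 overlap between T0-N (blue) and T4D25 (orange).

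fmd2, whose product oxidizes formaldehyde bound to glutathione, was between 16.4 and 30.7 CPM in T0-N with a median of 23.8, and between 172 and 697 CPM in T4D25 with a median of 451. The ratio of the means was 18.5, the largest of the 30. Every T4D25 library was far above the highest T0-N library, and fmd2 was low in cycling cells too. Its level in V25 had a median of 12.4 CPM (8.47 to 16.9), and its mean was 1.88 times higher in T0-N than in V25.

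SPAC11D3.19, an uncharacterized gene, had a T0-N median of 20.4 CPM (5.39 to 31.6) and a T4D25 median of 244 CPM (197 to 299), a ratio of 12.8. Its T4D25 libraries were close together and its T0-N libraries were spread. pdc201, pyruvate decarboxylase, had medians of 122 CPM (83.9 to 187) and 1333 CPM (1127 to 2269), a ratio of 11.7. Both groups were well apart for pdc201, which was at a median of 6.27 CPM in V25 (3.48 to 8.90).

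SPAC11D3.01c, of the Con-6 family, had a T0-N median of 36.0 CPM (17.7 to 83.2) and a T4D25 median of 362 CPM (162 to 654), a ratio of 8.94. min8 had a T0-N median of 6.89 CPM (3.78 to 11.04) and a T4D25 median of 53.8 CPM (42.7 to 89.0), a ratio of 8.65. ddr48 had a median of 213 CPM (105 to 354) and 1677 CPM (1249 to 2282), a ratio of 7.97. In all of these the lowest T4D25 library was above the highest T0-N library.

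The cell surface genes followed. pil2 had a T0-N median of 64.5 CPM (44.6 to 124) and a T4D25 median of 498 CPM (334 to 689), a ratio of 6.52. psu2 had a median of 32.8 CPM (7.64 to 72.6) and 202 CPM (100.2 to 367), a ratio of 6.43. mug191 had a median of 290 CPM (180 to 343) and 927 CPM (767 to 1134), a ratio of 3.47. The spread between T0-N libraries was widest for psu2 and narrow for mug191, and no T4D25 library of these genes overlapped.

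The thiamine genes were the most uneven. thi2 had a T0-N median of 659 CPM (138 to 1568) and a T4D25 median of 3240 CPM (1402 to 3912), a ratio of 3.95. nmt1 had a T0-N median of 5.10 CPM (1.38 to 387) and a T4D25 median of 36.2 CPM (2.36 to 719), a ratio of the means of 2.704. The high nmt1 values of T0-N were both of replicate 3, 343 CPM in strain 86 and 387 CPM in strain 97, and no other T0-N library was above 15.4 CPM. Without replicate 3 its ratio was 11.8 and without replicate 1 it was 2.07, which would leave it out of the 30. Of the other thiamine genes, thi4 had means of 134 and 196 CPM in T0-N and T4D25, and thi9, a thiamine transporter, had 183 and 288 CPM.

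Some genes only just met the threshold. sua1 (2.51), SPCC737.04 (2.64) and SPAC11D3.14c (2.65) were the lowest ratios inside, and fah2 (2.46), hsp3102 (2.43) and aif1 (2.40) the highest ratios outside. The lowest means inside the CPM limit were 17.02 for rpp203, 60.03 for min8 and 60.1 for SPCC1235.17. Just under that limit with a sufficient ratio were SPAC343.21 at 7.85 CPM, hop1 at 4.53 CPM and alr2 at 0.283 CPM. rpp203 had a T0-N median of 5.92 CPM (3.43 to 10.04) and a T4D25 median of 16.5 CPM (10.6 to 22.2), so its highest T0-N library and its lowest T4D25 library nearly met.

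The next comparison sets the first 24 hr of starvation beside cycling cells. V25 cells were in rich medium and T0-N cells in EMM2 without nitrogen, so medium, nitrogen and arrest cannot be told apart here. Comparing T0-N with V25, 22 of the 30 were at least 2-fold higher by their means, against 18.8% of eligible genes, and 4 were at least 2-fold lower, against 16.7%. SPCPB16A4.06c, uncharacterized, was between 1.68 and 4.63 CPM in V25 and between 124 and 298 CPM in T0-N, 68.3 times higher by its means. ddr48 was 33.5 times higher and SPAC11D3.18c, the carboxylic acid transporter, was 28.1 times higher. SPAC11D3.15 (0.884), isu1 (1.38), SPAC11D3.14c (1.68) and fmd2 (1.88) had ratios of the means of less than 2, and their libraries of V25 and T0-N overlapped. For 18 of the 30 the T0-N libraries lay wholly above those of V25 (22.7% of eligible genes), and for the 4 lower genes wholly below (22.2%). Set against V25, T4D25 lay wholly above for 26 of the 30 (24.1% of eligible genes) and wholly below for 2, rpp201 and rpp203 (23.7%). mug108 and nmt1 had no more than 4 counts in any V25 library, so no fold against V25 is given for them.

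The 4 genes lower in T0-N than in V25 were rpp201, rpp203, shm1 and sua1, whose products serve ribosomes, serine and glycine interconversion and sulphate assimilation. rpp201 had a median of 562 CPM in V25 (346 to 893), 70.9 CPM in T0-N (48.3 to 104) and 213 CPM in T4D25 (159 to 303). shm1 had a median of 654 CPM in V25 (462 to 748), 161 CPM in T0-N (100.3 to 252) and 414 CPM in T4D25 (368 to 545). sua1 had a median of 337 CPM in V25 (223 to 502), 120 CPM in T0-N (88.5 to 153) and 282 CPM in T4D25 (206 to 430). These genes were high in cycling cells, low at 24 hr and intermediate after 4 days, and in T4D25 the libraries of shm1 and sua1 overlapped those of V25. The other stalk genes stood in the same order of conditions. rpp202, the remaining P2 gene, had means of 836, 150 and 235 CPM in V25, T0-N and T4D25, rpp101 had 454, 73.0 and 156 CPM, and rpp0 had 923, 207 and 390 CPM.

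**Figure D2:**
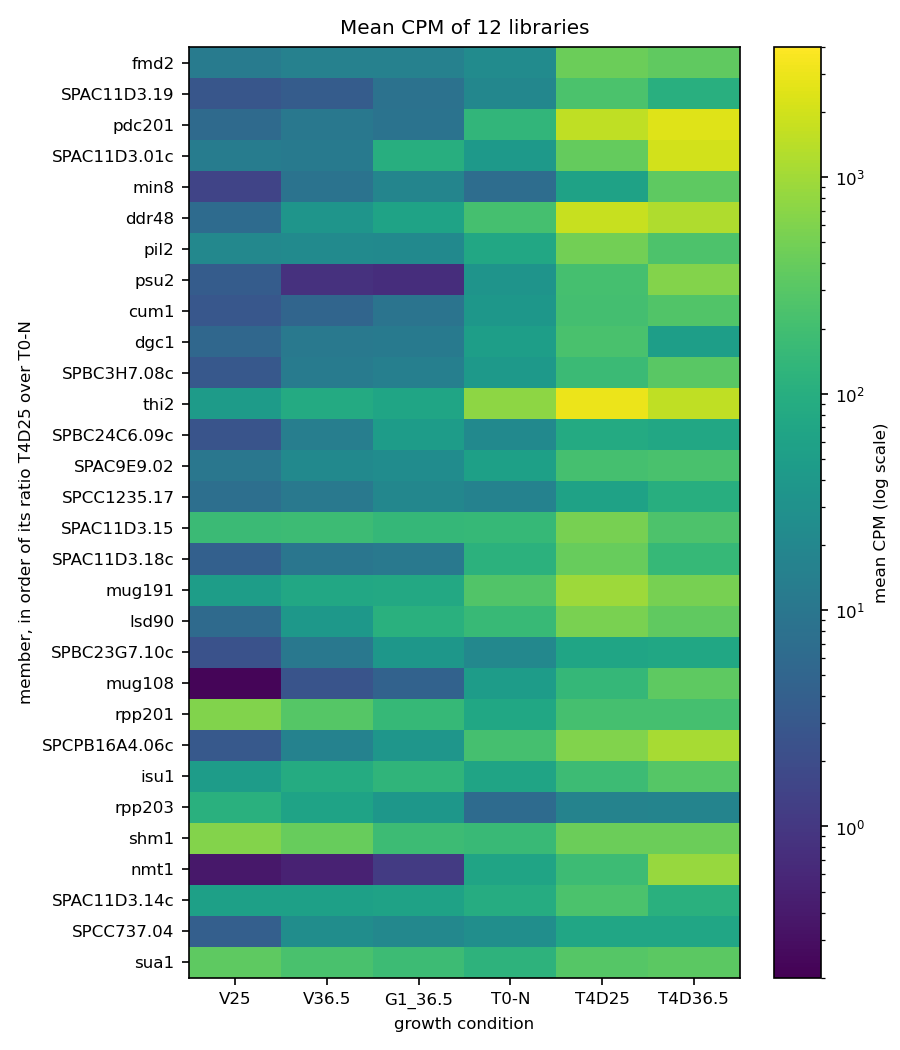
Colour gives the mean CPM of 12 libraries on a log scale, with the 30 genes in rows by their ratio and the 6 growth conditions in columns. 14 genes have their highest mean in T4D36.5, 12 in T4D25 and 4 (rpp201, rpp203, shm1 and sua1) in V25. The rule required T4D25 to exceed T0-N, and the shares of eligible genes by highest condition were not computed.

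Quiescent cells kept at 36.5°C were then set beside those kept at 25°C. Of the 30 genes, 5 were at least 2-fold higher in T4D36.5 than in T4D25 by their means (4.75% of eligible genes) and 5 were at least 2-fold lower (2.77%). Those higher were min8 (5.71 times), SPAC11D3.01c (5.23), nmt1 (4.78), psu2 (2.93) and mug108 (2.33). SPAC11D3.01c had a median of 1918 CPM in T4D36.5 (906 to 3317), and min8 of 314 CPM (227 to 482), both with no overlap with T4D25. Those lower were dgc1, SPAC11D3.18c, SPAC11D3.19, SPAC11D3.14c and SPAC11D3.15, whose means were 4.55, 2.696, 2.36, 2.31 and 2.12 times lower in T4D36.5. With mug191, which was 1.77 times lower, 6 genes had all T4D36.5 libraries below those of T4D25 (3.7% of eligible genes), and min8, SPAC11D3.01c and psu2 had all of them above (7.13%). dgc1 had a median of 218 CPM (140 to 417) in T4D25 and 51.1 CPM (27.2 to 77.5) in T4D36.5, and its T0-N median was 47.8 CPM.

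All 5 genes at least 2-fold lower at 36.5°C lie in 1 stretch of chromosome I. In all, 14 of the 30 had a lower mean in T4D36.5 than in T4D25. pil2 (1.92 times lower), thi2 (1.90) and mug191 (1.77) fell short of 2-fold and lie outside the stretch. In the ASM294v2 annotation the stretch runs from 106893 to 148055, and it holds 6 of the 30 genes among 19 coding genes. At its left end SPAC11D3.19 and SPAC11D3.01c lie tail to tail with 370 bases between them. At its right end SPAC11D3.14c and SPAC11D3.15 are divergent with 402 bases between them, and SPAC11D3.18c and dgc1 are divergent with 38 bases between them. The 6 had to be higher in T4D25 than in T0-N by the rule, and they bound the stretch. Of the other 13 coding genes, 12 had a higher mean in T4D25, as had 53.5% of eligible genes, and 2 were at least 2-fold higher (1.43% of eligible genes), SPAC11D3.06 (2.01 times) and hsp3104 (2.10 times). SPAC11D3.02c was the exception, at 0.696 times. SPAC11D3.01c, a neighbour of SPAC11D3.19, was higher at 36.5°C, so the stretch did not move as a whole with temperature. SPNCRNA.610, the RNA antisense to SPAC11D3.15, went the other way, with means of 46.9 CPM in T0-N and 9.55 CPM in T4D25.

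**Figure D3:**
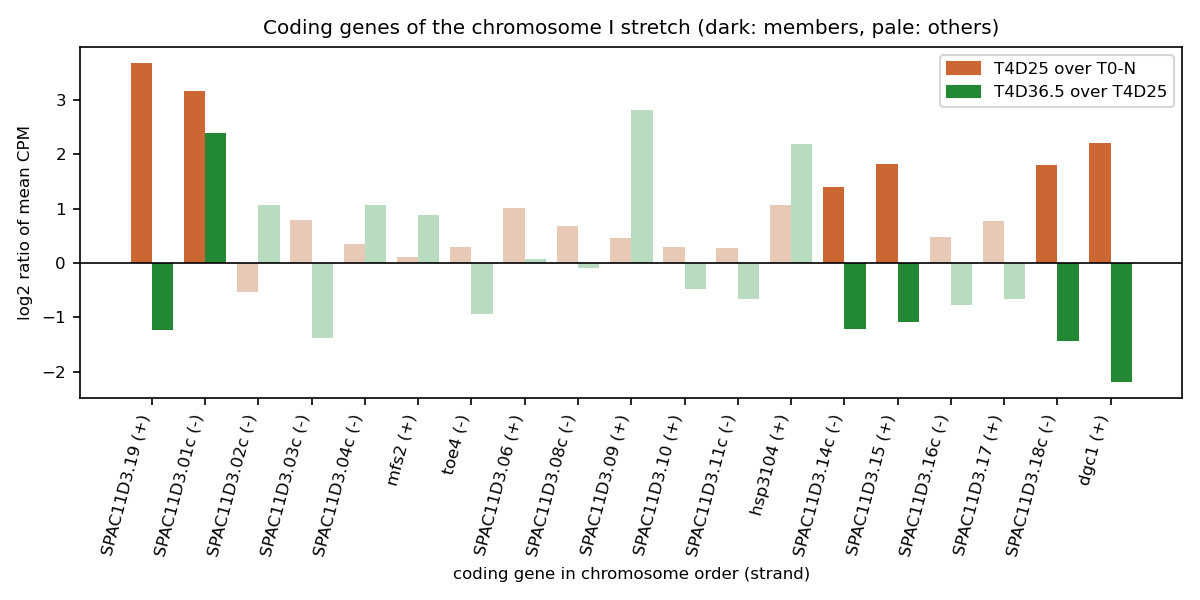
Bars give the log2 ratio of mean CPM for the 19 coding genes in chromosome order, T4D25 over T0-N (orange) and T4D36.5 over T4D25 (green), with the 6 chosen genes in dark colours. The orange bars of the 6 lie above the other genes, and their green bars are negative except for SPAC11D3.01c.

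The position and structure of the 30 genes were set beside those of the 4463 eligible genes with a mean of at least 10 CPM, with no test. Introns were absent from 23 of the 30 (76.7%) and from 49.3% of the eligible genes. 7 of the 30 lay within 200 kb of a chromosome end, against 4.59% of the eligible genes, and 6 of these 7 were in the stretch on chromosome I. 12 of the 30 had no gene symbol, against 15.6%. pil2 and mug191 were the only further near neighbours, with 2 coding genes and 5686 bases between them.

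The 3 conditions of growth or G1 arrest and T4D36.5 did not enter the rule, and contrasts among them were tested. Heat in cycling cells was tested as V36.5 against V25, with edgeR's quasi-likelihood F test over 6336 genes and Benjamini-Hochberg adjustment. 23 of the 30 differed (adjusted p below 0.05), when 63.4% of all genes tested did. 17 were higher at 36.5°C (35.4% of all genes) and 6 were lower (28% of all genes). The median log2 change of the 30 was 0.59, against 0.05 over all genes tested.

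The rises with the smallest p were those of SPCC737.04, SPCPB16A4.06c and ddr48. SPCC737.04 had a V25 median of 3.58 CPM (0.960 to 8.47) and a V36.5 median of 26.2 CPM (16.03 to 30.3), a log2 change of 2.66 ± 0.16 (SE, edgeR adjusted p = 1.48e-19). SPCPB16A4.06c had medians of 3.33 CPM (1.68 to 4.63) and 15.96 CPM (11.4 to 23.9), a log2 change of 2.19 ± 0.16 (edgeR adjusted p = 3.00e-16). ddr48 had medians of 5.25 CPM (3.40 to 11.6) and 33.5 CPM (15.8 to 61.9), a log2 change of 2.34 ± 0.20 (edgeR adjusted p = 3.09e-14). No V36.5 library of these genes overlapped V25. lsd90 rose by 2.53 ± 0.23 (edgeR adjusted p = 1.92e-13) and min8 by 2.57 ± 0.24 (edgeR adjusted p = 7.90e-13) on the log2 scale. The size of the min8 change is uncertain, since it had between 1 and 13 counts per library in V25, with 5 of 12 libraries at 3 or fewer, and its libraries of V25 and V36.5 overlapped. SPCC737.04 and SPCPB16A4.06c each had 1 V25 library at 3 counts.

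The falls included the 4 genes that were highest in V25. rpp201 fell by 1.24 ± 0.18 on the log2 scale (edgeR adjusted p = 7.84e-08), rpp203 fell by 1.00 ± 0.14 (edgeR adjusted p = 2.14e-08), shm1 fell by 0.85 ± 0.15 (edgeR adjusted p = 1.86e-06) and sua1 fell by 0.82 ± 0.16 (edgeR adjusted p = 2.65e-05). psu2 also fell, from between 3 and 27 counts per library in V25 to between 0 and 12 in V36.5 (edgeR adjusted p = 2.63e-05). At these counts no fold is given for it. fmd2, which had the largest ratio in late quiescence, was at 12.4 and 16.3 CPM (medians), a log2 difference of 0.17 ± 0.14 that did not pass (edgeR adjusted p = 0.295).

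Late quiescence and cycling were compared at the same temperature as T4D36.5 against V36.5. 29 of the 30 genes differed (adjusted p below 0.05), with 82% of all genes called. 27 were higher in T4D36.5 (41.1% of all genes) and 2 were lower (40.9%). The median log2 change was 3.39 for the 30 and 0.01 over all genes tested. T4D36.5 and T4D25 were parts of the same divided T0-N cultures, and the genes were chosen as high in T4D25. The excess of higher genes over all genes is therefore not independent of the rule. Medium, nitrogen and arrest differ between T4D36.5 and V36.5 together, so their parts cannot be told apart.

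pdc201 was at a median of 9.07 CPM in V36.5 (7.49 to 17.2) and 2514 CPM in T4D36.5 (1963 to 2894), a log2 change of 8.02 ± 0.16 (edgeR adjusted p = 1.90e-39). SPAC11D3.01c was at a median of 10.6 CPM (8.10 to 21.1) and 1918 CPM, a log2 change of 7.45 ± 0.15 (edgeR adjusted p = 3.02e-39). SPCPB16A4.06c was at a median of 15.96 CPM and 1089 CPM (526 to 1603), a log2 change of 6.07 ± 0.13 (edgeR adjusted p = 1.43e-37). These groups were far apart. fmd2 was at 16.3 CPM (10.02 to 20.2) and 323 CPM (201 to 575), a log2 change of 4.51 ± 0.13 (edgeR adjusted p = 8.04e-33), and thi2 rose by 4.05 ± 0.26 (edgeR adjusted p = 1.66e-19). nmt1 had between 0 and 8 counts in the V36.5 libraries and between 65.6 and 3093 CPM in T4D36.5 (edgeR adjusted p = 3.63e-16), and no fold is given for it.

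The smallest rises that passed were those of SPAC11D3.15 (0.55 ± 0.09 on the log2 scale, edgeR adjusted p = 5.22e-07) and sua1 (0.59 ± 0.16, edgeR adjusted p = 0.00114). rpp203 was lower in T4D36.5, at a median of 15.96 CPM (9.97 to 43.3) against 65.7 CPM in V36.5 (37.9 to 89.1), and fell by 1.83 ± 0.16 on the log2 scale (edgeR adjusted p = 1.25e-14). rpp201 was at 203 and 292 CPM (medians) and fell by 0.40 ± 0.18 (edgeR adjusted p = 0.0385), a call that was lost with DESeq2 (adjusted p = 0.0898), without replicate 2 (edgeR adjusted p = 0.286) and without replicate 3 (edgeR adjusted p = 0.0561). shm1 was at 383 CPM (289 to 689) and 415 CPM (227 to 548), a difference of 0.15 ± 0.14 that did not pass (edgeR adjusted p = 0.337).

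**Figure D4:**
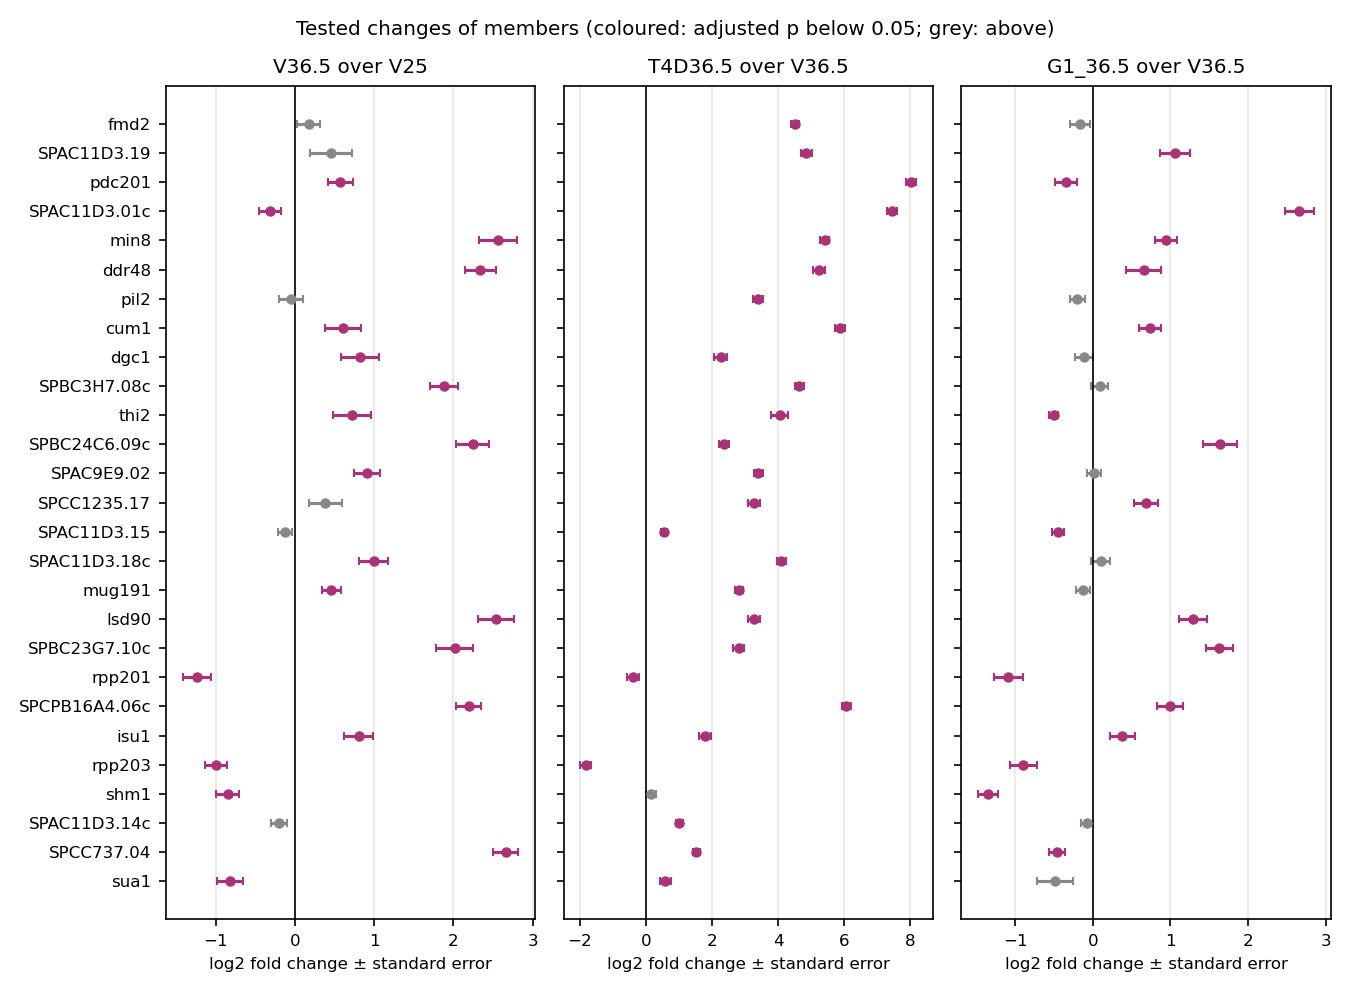
Points give the edgeR log2 fold change and bars a standard error derived from it and F, for 27 of the 30 genes. nmt1, psu2 and mug108 had too few counts in cycling cells for a fold. Coloured points passed the adjusted p of 0.05. The middle panel, T4D36.5 over V36.5, has 2 points below zero that passed, rpp201 and rpp203.

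Arrest in G1 with nitrogen present was tested as G1_36.5 against V36.5 over 6219 genes, where nmt1 and psu2 did not pass the filter on low counts. 19 of the 28 tested genes differed, when 68.6% of all genes did. 12 were higher in G1 (34.1% of all genes) and 7 were lower (34.5%). The median log2 change was 0.05 over the 28 and 0.01 over all genes tested, so the count, the directions and the median were near those of all genes. The G1 libraries carry other strain numbers and cdc10-129, and the strains and the arrest cannot be told apart.

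SPAC11D3.01c had the smallest p. It was at a median of 56.3 CPM in G1_36.5 (29.1 to 229) and 10.6 CPM in V36.5, a log2 change of 2.66 ± 0.19 (edgeR adjusted p = 1.01e-10). The G1 libraries were spread over a wide range, and all were above the V36.5 libraries. SPBC23G7.10c rose by 1.63 ± 0.17 (edgeR adjusted p = 6.79e-08), SPBC24C6.09c by 1.64 ± 0.21 (edgeR adjusted p = 1.04e-06) and lsd90 by 1.28 ± 0.18 (edgeR adjusted p = 2.63e-06) on the log2 scale. shm1 fell by 1.35 ± 0.12 (edgeR adjusted p = 8.22e-09) and rpp201 fell by 1.09 ± 0.19 (edgeR adjusted p = 3.33e-05). thi2 fell by 0.50 ± 0.06 (edgeR adjusted p = 1.61e-07) and SPAC11D3.15 fell by 0.45 ± 0.07 (edgeR adjusted p = 1.99e-05), both of which were called higher in T4D36.5 than in V36.5.

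The strains were compared within each starved condition, by a test of any difference among the 4 over 12 libraries. This test did not use the pairing of libraries by replicate number, which the replicate block below does. T4D36.5 did not enter the rule. T0-N and T4D25 entered it as means over the 4 strains, so the tests within them use another contrast but the same libraries, and are not independent of the choice of genes. In T0-N, 1 of the 30 genes differed (0.923% of all genes). This was SPAC11D3.19, at a mean of 8.52 ± 3.97 CPM (SD, n = 3) in strain 86, 16.2 ± 1.72 in 97, 25.1 ± 2.19 in 92 and 27.2 ± 3.84 in 93 (edgeR adjusted p = 0.0276). Strain 86 was lowest and no library of strains 86 and 97 overlapped those of 92 and 93. SPAC11D3.01c (edgeR adjusted p = 0.0619) and SPAC9E9.02 (edgeR adjusted p = 0.0718) came next. A replicate block gave 14 of the 30 (8.17% of all genes), DESeq2 6 (3.05%) and edgeR's likelihood ratio test 7 (2.94%), and without replicate 1, without replicate 2 or without replicate 3 the count was 0.

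In T4D25, 4 genes differed among strains (1.8% of all genes). SPAC11D3.01c was at a mean of 568 ± 77.9 CPM (SD, n = 3) in strain 92, 448 ± 64.7 in 93, 329 ± 19.8 in 97 and 198 ± 53.2 in 86 (edgeR adjusted p = 0.00291). pdc201 was at 2158 ± 156 CPM in 97, 1569 ± 287 in 86, 1277 ± 74.2 in 93 and 1246 ± 104 in 92 (edgeR adjusted p = 0.0350). The other 2 were nmt1 (edgeR adjusted p = 0.00786) and SPAC11D3.14c, which was highest in strain 97 at 343 ± 40.2 CPM (edgeR adjusted p = 0.0282). nmt1 was between 58.1 and 719 CPM in the libraries of strains 86 and 97 and between 2.36 and 14.4 CPM in those of 92 and 93. A replicate block gave 17 of the 30 (8.27% of all genes) and DESeq2 gave 8 (3.58%). Without replicate 1 the count was 0 and without replicate 2 it was 1.

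In T4D36.5, 14 of the 30 genes differed among strains (25.7% of all genes). The count was 5 without replicate 2 and 17 with a replicate block (39.4% of all genes). nmt1 was at a mean of 1770 ± 1148 CPM (SD, n = 3) in strain 86 and 1451 ± 316 in 97, against 91.3 ± 30.4 in 92 and 106 ± 14.9 in 93 (edgeR adjusted p = 6.17e-06). SPBC3H7.08c went the other way, at 462 ± 76.4 CPM in 92 and 446 ± 38.6 in 93 against 196 ± 76.4 in 86 and 165 ± 24.3 in 97 (edgeR adjusted p = 0.000218). SPBC24C6.09c, of the phosphoketolase family, was at 112 ± 12.8 CPM in 97 and 107 ± 35.2 in 86 against 44.0 ± 12.3 in 92 and 38.8 ± 9.87 in 93 (edgeR adjusted p = 0.000882). pil2, the eisosome gene, was at 393 ± 50.5 CPM in 86 and 342 ± 117 in 97 against 143 ± 47.3 in 92 and 142 ± 32.8 in 93 (edgeR adjusted p = 0.000946).

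In all 14 genes strains 92 and 93 held either both of the highest means (7 genes) or both of the lowest (7 genes). The same held for 97.0% of the 1548 genes called in T4D36.5, so the 14 are like the other called genes in this. Those with 92 and 93 highest were SPBC3H7.08c, mug108, SPAC11D3.01c, fmd2, SPCPB16A4.06c, SPCC737.04 and min8, and those with 92 and 93 lowest were nmt1, SPBC24C6.09c, SPAC11D3.19, pil2, thi2, mug191 and SPAC9E9.02. This order was noticed in these data and was not tested.

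**Figure D5:**
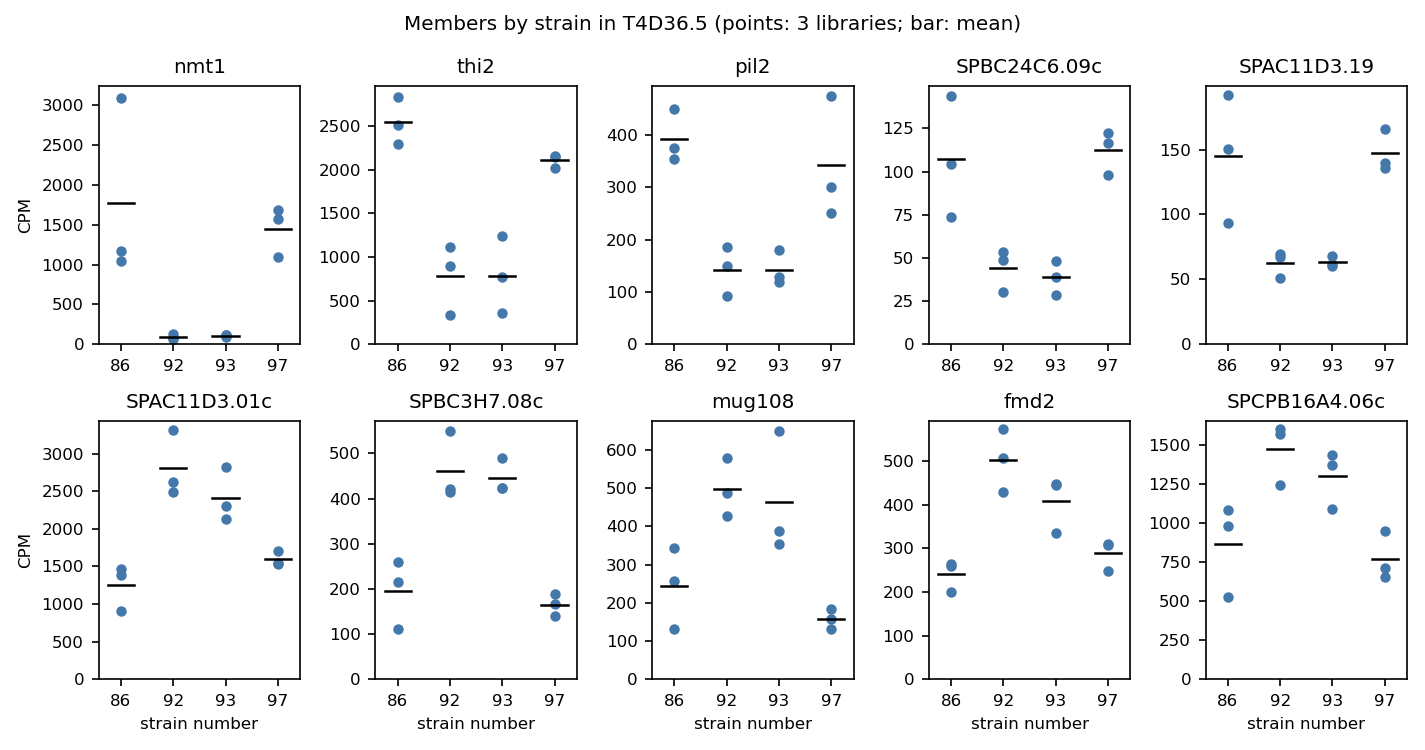
Each panel shows 1 of 10 genes that differed among strains in T4D36.5, with CPM from zero on the vertical axis, the strain number on the horizontal axis, 3 libraries as points and their mean as a black line. In the upper row strains 92 and 93 are low (nmt1 means of 91.3 and 106 CPM) and in the lower row they are high (SPBC3H7.08c means of 462 and 446 CPM).

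The change from T0-N to T4D25 was also fitted by strain, as an interaction over 60 libraries. The rule used this change as a mean over the strains. The fit asks how the change differs among strains in the same libraries, so its counts are a description and nothing is read from them. Among the 30 only SPAC11D3.19 had an adjusted p below 0.05 by edgeR (0.379% of all genes), and 2 did with a replicate block (0.758% of all genes). The means of SPAC11D3.19 were 27.4, 17.1, 9.82 and 8.43 times higher in T4D25 in strains 86, 97, 92 and 93. Its strain means in T4D25 lay between 229 and 277 CPM, and its libraries between 197 and 299 CPM. dgc1 and SPAC11D3.18c, of the same stretch, had ratios of 8.63 and 5.02 in strain 86 and of 3.143 and 2.66 in 93. All 4 strains had a higher mean in T4D25 for each of the 30 genes, by between 1.73 times (mug108 in strain 86) and 27.4 times. The rule required a rise of the mean over these strains, so this follows largely from it. The share of eligible genes higher in all 4 strains was not computed.

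Of 15 lists of genes for stress, nutrition, metabolism and differentiation, 3 held any of the 30. lsd90 was the 1 gene of the list of lipid storage and breakdown (17 genes). nmt1 and thi2 were 2 of 17 measured genes of phosphate and thiamine acquisition. fmd2 was the only gene of the 30 on the list of nitrogen scavenging and catabolism (30 measured genes). Its annotated product, a formaldehyde dehydrogenase, names no step of nitrogen use, so its place on that list is not read as its function. In the nitrogen list 21 genes rose and 6 fell in T4D36.5 against V36.5, with a median log2 change of 1.02, where 41.1% of all genes were higher and 40.9% lower. In the phosphate and thiamine list 8 rose and 4 fell of 16 tested (median 0.20), and in the lipid list 2 rose and 10 fell of 17 (median -0.33). The lists of stress targets, redox enzymes, chaperones, autophagy, proteases, respiratory chain, citric acid cycle, hexose uptake, metals, meiosis, proteasome and cell wall held none of the 30.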

How the data were processed

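Stranded, rRNA-depleted libraries were sequenced in paired reads of 58 bases. The authors demultiplexed with bcl2fastq, aligned with STAR 2.7.10a to ASM294v2 and deposited raw counts per gene from featureCounts 1.5.1. The deposited table also holds gene lengths, a value of another unit, which were used only for exon length. The 92 ERCC spike-in rows were left out of library sizes and tests.

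CPM was computed over the 7014 genes. The members and lists were chosen with earlier results of these data known. Counts were tested with edgeR 4.0.16 in R 4.3.3 (filterByExpr, TMM, quasi-likelihood F test, Benjamini-Hochberg adjustment over all genes tested, threshold 0.05). Heat, late quiescence and the interaction came from 1 fit of 60 libraries, the G1 comparison from 24 libraries and the strain tests from 12 each. The standard error is the absolute log2 change over the square root of F. The procedure was also run on simulated counts drawn with no effect of replicate number, unlike these data, and nothing is read from that here. Alternatives were DESeq2 1.42.0, its size factors, a likelihood ratio test, other filters on low counts, spike-in rows kept, a replicate block, and each replicate left out. Strain numbers were not paired with genotypes.

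The labels give the replicate number as a batch, so that same-numbered libraries are paired. Only the fits with a replicate block used this pairing. The deviations of same-numbered libraries from their group means had mean correlations from 0.385 to 0.662 within conditions, against -0.327 to -0.187 for different numbers.

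Genes were named by fixed rules: the highest levels and ratios in T4D25, the nearest to each threshold, the smallest p of each test, list members, the extremes of the temperature and V25 ratios, and chromosomal neighbours. Figures were drawn with matplotlib 3.10.9 in Python 3.11.15 (numpy 2.4.6, pandas 2.3.3).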

Additional observations from a re-analysis of the deposited data

How the results depend on the processing

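Of the 30 genes, 29 met the rule with TMM library sizes and 29 with DESeq2 size factors, and 32 genes met it by medians. Leaving out 1 replicate gave 26 to 36. Scaling to spike-in counts, an alternative chosen after seeing the data, gave 523, with the median ratio of eligible genes at 1.88. With at least 10 counts in every library only 16 of the 30 were tested, of which 10 differed with heat, 14 in late quiescence and 0 in the interaction. Leaving out 1 replicate gave 20 to 26 genes for heat, 28 to 29 for late quiescence and 15 to 20 for G1. Among strains it gave 0 in T0-N whichever was left out, 0 to 4 in T4D25 (0 without replicate 1, 1 without replicate 2), 5 to 14 in T4D36.5 (5 without replicate 2) and 0 to 3 for the interaction (3 without replicate 3, otherwise 0). For T0-N, 13 of the 30 had an unadjusted p below 0.05, a count whose share over all genes was not computed. For T0-N, edgeR's likelihood ratio test called 7 and DESeq2 6. DESeq2 called 8 in T4D25. With the replicate block, which follows the pairing by number, 14 differed in T0-N, 17 in T4D25 and 2 in the interaction. The block left the counts for heat at 23 and for late quiescence at 29, and gave 20 for G1 and 17 for T4D36.5. Apart from the shares given above, the share of all genes called under each alternative is not given. These counts show how far the calls moved and are not read as traits of the 30. The causes were not tested. In V25, 3 or fewer counts were found in 12 of 12 libraries for mug108, 11 for nmt1, 5 for min8, 3 each for SPAC11D3.19 and SPBC23G7.10c, 2 for SPBC24C6.09c, and 1 each for psu2, cum1, SPCPB16A4.06c and SPCC737.04, and in V36.5 in 10 for nmt1, 7 for psu2, and 2 each for mug108 and SPAC11D3.19.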
